A study of Homo sapiens with 5 samples.

Results

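The extracellular proteases described here are matrix metalloproteases (MMPs), ADAM and ADAMTS metalloproteases and cathepsins, together with the genes that restrain or induce MMPs. The list holds 43 genes, given by name, with earlier results of these arrays known. A gene was read from an array feature annotated with its symbol alone, and from the brightest such feature where it had several. This gave values for 38 of the 43 genes, among 14232 genes measured in all. The other 5 genes, ADAM8, ADAM10, ADAM17, CTSL and CTSD, have features annotated with a further symbol and were not analysed here.

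RNA came from A549 and CRL-5907, established human lung cancer lines, and each of 5 samples was measured on 1 Affymetrix exon array. A549 carries a loss-of-function LKB1 mutation and has high NEDD9, per the submitters, and was profiled as a control, with the hairpin shNEDD9 #1 and with the hairpin shNEDD9 #2. CRL-5907 has wild-type LKB1 and little NEDD9, per the submitters, and was profiled as a control and with NEDD9 overexpression. NEDD9 is a scaffold protein of focal adhesions, and the design asks which genes differ when it is lowered in the first line and raised in the second. Values are log2 levels after normalisation, each from 1 array, so a log2 difference of 1 is 2-fold. The 2 hairpins are the only replicates, and a mean ± SD below is over them (n = 2). The labels do not say what construct the controls carried, whether the modified cells were clones or pools, or whether arrays came from separate cultures. The p-values therefore cannot be read as measuring variation between cultures. They rest on the spread between these 2 arrays, which the limma fit pulls towards that of other genes at similar levels.

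MMPs are zinc proteases that cut collagens, laminins, proteoglycans and cell-surface proteins. They are made as inactive proenzymes, either secreted or anchored in the plasma membrane, and TIMPs block their active sites. ADAMs sit in the membrane and shed growth factors and adhesion molecules, ADAMTS enzymes are secreted and cut proteoglycans and procollagens, and cathepsins are mainly lysosomal proteases that tumour cells can also secrete. In lung adenocarcinoma MMP7, or matrilysin, is made by the epithelial tumour cells themselves, whereas many other MMPs come from the stroma.

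The promoters of the 3 members with the widest gaps between the lines, MMP7, TIMP3 and MMP24, are shown with that of MMP10, a neighbour of MMP7 on chromosome 11 that stayed far below the array median. They are RefSeq sequences of GRCh38.p14, the 250 bases before each gene's start, 5′ to 3′ on the gene's strand. In MMP7 and MMP10 capitals mark the AP-1 letters TGAGTCA or TGACTCA and the TATA letters TATAAA, each searched on both strands.
MMP7 (chr11:102530748-102530997, minus strand): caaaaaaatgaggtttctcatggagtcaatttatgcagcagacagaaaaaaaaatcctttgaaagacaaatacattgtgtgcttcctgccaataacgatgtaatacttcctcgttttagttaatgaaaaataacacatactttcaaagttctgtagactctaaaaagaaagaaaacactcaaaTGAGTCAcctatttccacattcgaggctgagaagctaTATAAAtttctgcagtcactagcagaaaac
MMP10 (chr11:102780629-102780878, minus strand): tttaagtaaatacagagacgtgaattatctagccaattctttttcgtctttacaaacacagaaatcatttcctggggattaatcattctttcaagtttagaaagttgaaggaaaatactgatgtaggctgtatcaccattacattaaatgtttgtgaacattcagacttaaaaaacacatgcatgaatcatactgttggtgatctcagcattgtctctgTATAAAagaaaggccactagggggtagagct
In MMP24 and TIMP3 no such letters were found, and capitals mark CG dinucleotides.
MMP24 (chr20:35226440-35226689, plus strand): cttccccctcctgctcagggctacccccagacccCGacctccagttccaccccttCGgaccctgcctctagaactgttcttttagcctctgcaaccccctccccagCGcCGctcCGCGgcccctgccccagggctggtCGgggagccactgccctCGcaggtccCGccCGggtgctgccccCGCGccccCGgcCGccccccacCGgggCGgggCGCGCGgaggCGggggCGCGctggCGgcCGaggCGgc
TIMP3 (chr22:32801455-32801704, plus strand): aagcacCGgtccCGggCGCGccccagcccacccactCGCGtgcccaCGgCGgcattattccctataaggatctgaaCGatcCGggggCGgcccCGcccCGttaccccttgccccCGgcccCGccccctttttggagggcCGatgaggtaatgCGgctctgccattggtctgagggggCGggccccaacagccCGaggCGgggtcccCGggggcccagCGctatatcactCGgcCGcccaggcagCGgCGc
The AP-1 letters of MMP7 start at -67 and its TATA letters at -30, counted from the gene's start. MMP10 has the TATA letters at -31 and no exact AP-1 letters in this window. It does hold tgaatca, 1 letter from TGAGTCA, and such near matches were not searched for. Of 35116 promoters of the same length, 4.20% hold the AP-1 letters, 10.7% the TATA letters and 0.626% both. Among the 23 listed genes with an entry in the promoter table, only MMP7 holds the AP-1 letters and 3 hold the TATA letters (MMP7, MMP10 and BSG, the last in 1 of its 2 entries, starting at -27). MMP1, MMP3, MMP9, MMP12 and MMP13 have no entry, so their promoters were not searched. The CG count was 3 for MMP7, 2 for MMP10, 25 for MMP24 and 26 for TIMP3, against a median of 11 over all promoters. A match describes letters only, and neither factor binding nor DNA methylation was measured.

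A gene passed the filter of a comparison when the brightest of its arrays exceeded the median of all named features there, and these medians ran from 5.69 to 5.85. Whether a level below the median is more than background is unknown, and differences that start from one may be too small. Of the 38 genes, 13 were above the median on every array (34.2%, against 43.7% of all genes), among them MMP7, TIMP1, TIMP2, ADAM9 and CTSB. Another 19 were below it on every array (43.5% of all genes were). These 19 were MMP1, MMP2, MMP3, MMP9, MMP10, MMP12, MMP13, MMP16, MMP19, MMP25, MMP28, ADAM19, ADAM28, ADAMTS1, ADAMTS5, ADAMTS6, ADAMTS12, CTSK and CTSS. The normalization can give several arrays exactly the same value, and a difference of 0 can arise in that way. Such ties on at least 2 arrays occurred in 15 of the 38 genes (39.5%, against 36.0% of all genes), and MMP19 had the value 2.84 on all 5 arrays.

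The arrays followed their labels for NEDD9 itself, which differed from control by -0.59 with shNEDD9 #1, -0.41 with shNEDD9 #2 and 4.83 with overexpression. On the linear scale the hairpin differences were -33.4% and -24.8%, so the knockdown was partial at the RNA level. All 6 epithelial markers measured were above the median on every array. Fibroblast markers were above it in 0 or 1 of 8 (COL1A1 in CRL-5907), endothelial markers in 1 of 7 (CLDN5) and leukocyte markers in 1 or 2 of 8 (CD68 and CD14). Summed linear levels can be compared between arrays within a list, not between lists. The epithelial sum was 6621 to 7040 on the A549 arrays and 4270 to 4413 on the CRL-5907 arrays, and the leukocyte sum 871 to 960 and 678 to 699. The fibroblast sum was 162 to 172 and 169 to 177, and the endothelial sum 158 to 173 and 163 to 164. COL1A2, DCN, PECAM1, CDH5 and PTPRC, which define those cell types, were below the median on every array. CD14 differed by -0.39 and -0.84 with the hairpins, and its part in the differences below was not tested. Pairs of arrays correlated at 0.989 to 0.991 within a line and 0.948 to 0.953 between lines.

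Between the 2 control arrays, 6 of 19 members past the filter differed at least 2-fold (31.6%, against 14.9% of the genes), 4 higher in A549 and 2 higher in CRL-5907. Over all 7716 genes past the filter 9.88% were at least 2-fold higher in A549 and 5.0% at least 2-fold higher in CRL-5907. MMP14, MMP24, TIMP3 and RECK passed the filter only through the line where they were higher. With no filter the count was 6 of 38 members, against 9.96% of all genes. The list was chosen with results of these arrays known, so its share here is not separate evidence. Each line has 1 control array, and these differences were not tested. They are also differences between 2 lines that differ in much more than NEDD9, and line and NEDD9 level cannot be told apart. In RNA from whole cultures, fewer cells with a transcript and less of it per cell cannot be told apart either.

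**Figure D1:**
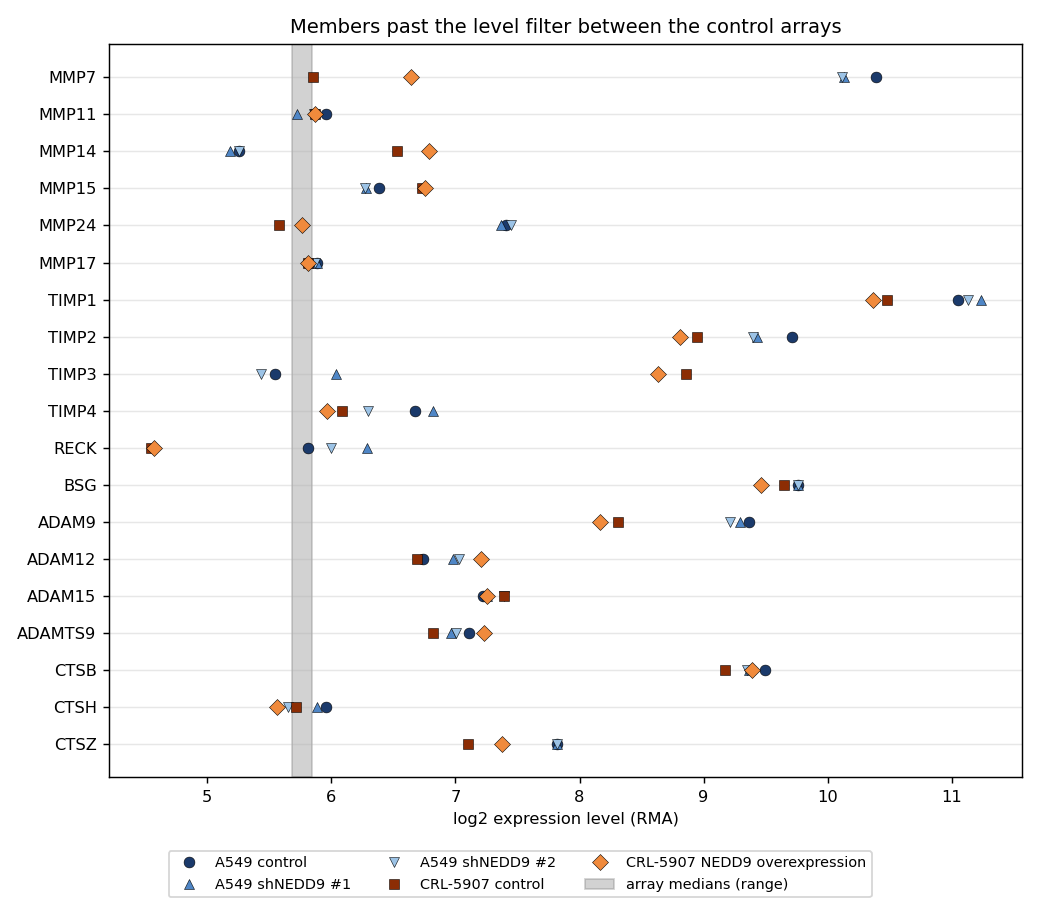
Log2 expression level (x axis) of the 19 members past the filter between the control arrays (rows), with 1 point for each of the 5 arrays and a grey band over the array medians, 5.69 to 5.85. MMP7, MMP24 and RECK lie further right on the 3 A549 arrays, and MMP14 and TIMP3 on the 2 CRL-5907 arrays; levels are comparable along a row and not between rows.

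MMP7 had the widest gap. In A549 its log2 level was 10.39 without a hairpin, 10.13 with shNEDD9 #1 and 10.12 with shNEDD9 #2, and in CRL-5907 it was 5.85 in the control and 6.64 with overexpression. All A549 arrays were high and both CRL-5907 arrays low, with the CRL-5907 control just above its array median of 5.69. The control arrays differed by 4.54, or 23.2-fold, a gap reached by 23 of the 7716 genes in that direction (0.298%). The smallest gap between any A549 and any CRL-5907 array was still 3.48.

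The location of MMP7 in a run of MMP genes on chromosome 11 allows a comparison with its neighbours. In the RefSeq gene table of GRCh38.p14, MMP7, MMP20, MMP27, MMP8, MMP10, MMP1, MMP3, MMP12 and MMP13 follow one another with no other protein-coding gene between them. All 9 were measured. MMP7 was above the median on all 5 arrays and the other 8 on none.
MMP1, the interstitial collagenase, had levels of 3.38, 3.09 and 3.30 on the A549 control, shNEDD9 #1 and shNEDD9 #2 arrays, and of 3.03 and 3.25 on the CRL-5907 control and overexpression arrays. MMP12, the macrophage elastase, had levels of 2.70, 2.52, 2.30, 2.24 and 2.40 in the same order, and MMP10, a stromelysin, 2.63, 2.67, 2.52, 2.40 and 2.52. The arrays of the 2 lines overlapped or were tied for each of these 3 genes. MMP3, another stromelysin, had 2.79 on 4 arrays and 2.66 with shNEDD9 #2. MMP13, collagenase 3, ran only from 2.55 to 2.61. For these neighbours the difference between the control arrays, where there was one, may be a difference in background.

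**Figure D2:**
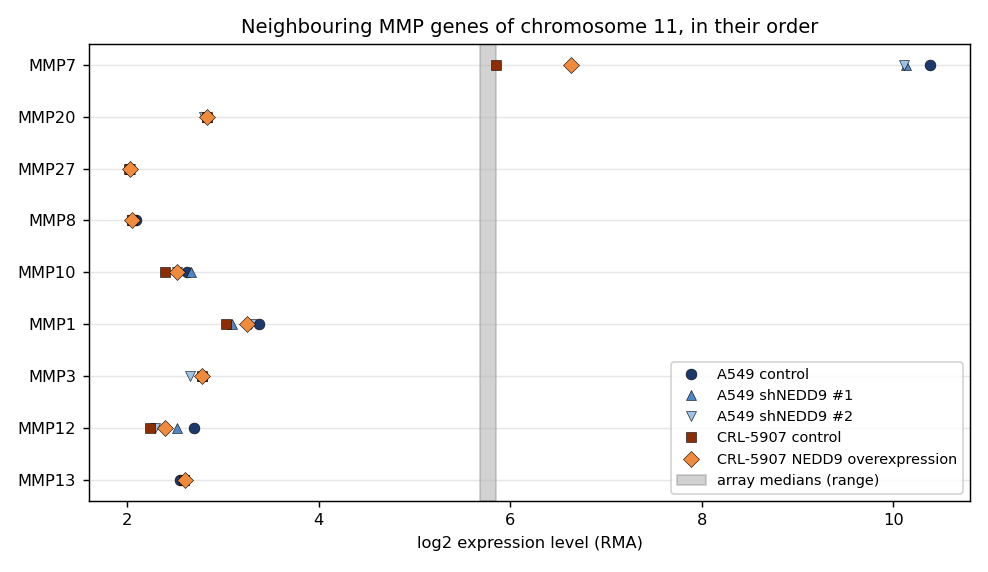
Log2 expression level (x axis) of the 9 neighbouring MMP genes of chromosome 11 (rows, in chromosomal order) on each of the 5 arrays, with a grey band over the array medians, 5.69 to 5.85. MMP7 alone has points to the right of the band; the other 8 genes stay at or below 3.38.

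The membrane-type MMPs differed between the lines in both directions. MMP24, which cuts cadherins in neural tissue, had levels of 7.41, 7.37 and 7.45 on the A549 arrays (control, shNEDD9 #1, shNEDD9 #2) and of 5.58 and 5.76 on the CRL-5907 arrays (control, overexpression). The lines did not overlap, and the controls differed by 1.83, or 3.56-fold, from a CRL-5907 value below its array median. MMP14, the membrane-anchored collagenase that activates pro-MMP2, was the reverse, at 5.26, 5.18 and 5.26 in A549 and 6.53 and 6.79 in CRL-5907. Its A549 values were all below the array medians, and the CRL-5907 control was 2.41-fold above the A549 control. MMP15, a close relative of MMP14, had levels of 6.39, 6.28 and 6.28 in A549 and 6.73 and 6.75 in CRL-5907, a smaller gap in the direction of MMP14 (-0.34 as A549 minus CRL-5907). MMP17 differed by 0.07, and MMP16 and MMP25 were below the median on all arrays. MMP2, the gelatinase that MMP14 activates, was low in both lines, with 4.37, 4.21 and 4.21 in A549 and 4.21 and 4.19 in CRL-5907. MMP9, the other gelatinase, had 4.82, 4.60, 4.78, 4.78 and 4.78 in the same order, 3 of them tied.

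Among the inhibitors TIMP3 had the widest gap. TIMP3, the TIMP that binds to matrix and also inhibits ADAMs, had levels of 5.55, 6.04 and 5.43 in A549 and of 8.86 and 8.63 in CRL-5907. Only shNEDD9 #1 put it above the median in A549, while both CRL-5907 arrays were well above it. The CRL-5907 control was 9.93-fold above the A549 control, a difference of -3.31 as A549 minus CRL-5907, and 32 genes lay as far in that direction (0.415%). RECK, a membrane-anchored MMP inhibitor, was the reverse, at 5.81, 6.29 and 6.0 in A549 and 4.55 and 4.57 in CRL-5907, where it was below the median. Its controls differed by 1.26, or 2.40-fold. TIMP1 (11.05, 11.23 and 11.13 against 10.48 and 10.36), TIMP2 (9.71, 9.43 and 9.40 against 8.95 and 8.81) and TIMP4 (6.67, 6.82 and 6.30 against 6.09 and 5.97) were higher on every A549 than on every CRL-5907 array. Their control gaps of 0.57, 0.76 and 0.58 did not reach 2-fold. BSG, or basigin, which induces MMPs in neighbouring cells, had 9.76 on all 3 A549 arrays, and 9.65 and 9.46 in CRL-5907.

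ADAM9 was the ADAM with the widest gap past the filter. This sheddase of heparin-binding EGF and other membrane proteins had levels of 9.37, 9.29 and 9.21 in A549 and 8.31 and 8.17 in CRL-5907. The lines did not overlap, and the control gap of 1.06 (2.08-fold) fell to between 0.91 and 0.98 after median centring, a further quantile normalization or removal of the trend with level, just short of 2-fold. ADAM15 (7.22, 7.26, 7.39, 7.39 and 7.25, A549 arrays first) and ADAM12 (6.74, 6.98, 7.03, 6.69 and 7.21) overlapped between the lines. ADAMTS9, a protease of versican and aggrecan, overlapped too, at 7.11, 6.97 and 7.0 in A549 and 6.82 and 7.23 in CRL-5907. ADAMTS1, which also cuts these proteoglycans, was below the median throughout but higher in CRL-5907, at 4.19, 4.07 and 4.11 against 4.86 and 5.34.

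All 5 measured cathepsins were higher in control A549 than in control CRL-5907 cells, and none by 2-fold. Over all genes 51.8% were higher in A549 by any amount, and 42.1% after median centring, where all 5 were again higher. CTSZ, a carboxypeptidase, had 7.82 on all 3 A549 arrays, and 7.10 and 7.38 in CRL-5907, a control gap of 0.72. CTSB, a broadly expressed lysosomal cysteine protease, had levels of 9.49, 9.36 and 9.35 in A549 and 9.17 and 9.39 in CRL-5907, where the overexpression array reached the hairpin arrays. CTSH, an aminopeptidase that processes surfactant proteins in the lung, was close to the median at 5.96, 5.89, 5.65, 5.71 and 5.56. CTSK, the collagen-cutting cathepsin of osteoclasts (5.60, 5.51, 5.34, 4.77 and 5.27), and CTSS, of antigen-presenting cells (5.04, 5.16, 5.06, 4.45 and 4.60), were below the median on all arrays, with control gaps of 0.82 and 0.59.

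The line gaps at 2-fold were also read from all arrays, which was decided after the data had been seen. MMP7, MMP24 and RECK on every A549 array were at least 2-fold above every CRL-5907 array, and MMP14 and TIMP3 at least 2-fold below. That is 3 and 2 of 19 members, where 6.97% and 3.43% of the 7716 genes did so. The limits given above for the filter and for the choice of the list apply here too. Without any fold limit 10 of the 19 had every A549 array above every CRL-5907 array (40.6% of the 7716 genes) and 3 the reverse (27.2%). The control gaps of BSG and MMP17, both among the 10, turned below 0 after a further quantile normalization.

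With NEDD9 knockdown in A549, 0 of the 18 members past the filter were 1.5-fold from the control with both hairpins, and none with either hairpin alone. NEDD9 itself, at -0.59 and -0.41, was short of 1.5-fold with shNEDD9 #2 and did not meet the rule for both. A count of 0 therefore does not show that members are unaffected. Over the 7485 genes past the filter, 0.708% were 1.5-fold higher and 0.134% 1.5-fold lower with both hairpins, 0.842% in all, so a count of 0 in 18 is close to the background. Taken singly, shNEDD9 #1 put 3.10% of the genes past 1.5-fold (2.57% higher, 0.534% lower) and shNEDD9 #2 1.83% (1.35% higher, 0.481% lower). After Benjamini-Hochberg adjustment limma called 0 of the 7485 genes at 0.05, with 1 residual degree of freedom. Without adjustment 1312 genes (17.5%) had a limma p under 0.05, among them 4 of the 18 members, MMP7, MMP15, TIMP2 and ADAM12. The largest difference of the hairpins among these 4 was 0.05, against a median size of 0.09 over the 7485 genes and a 95th percentile of 0.34. A low p in this fit favours genes with close hairpins. The closeness of these 4 therefore follows from how they were picked. Both hairpins are compared with the same single control array, so its error enters both differences and is not in their SD.

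MMP7 and TIMP2 were the members lower by at least 0.25 with both hairpins, and 2.61% of the 7485 genes were as well. None was higher by that much with both, against 11.5% of the genes. MMP7 differed by -0.26 and -0.27, or -16.3% and -17.1% on the linear scale, with a mean of -0.26 ± 0.01 (SD, n = 2) and an adjusted p = 0.276 from limma. TIMP2, an MMP inhibitor that also takes part in pro-MMP2 activation by MMP14, differed by -0.28 and -0.31, or -17.8% and -19.4%, with a mean of -0.30 ± 0.02 (adjusted p = 0.276 from limma). In both genes the 2 hairpin arrays were close together and the control array was apart from them. Genes as far below control with both hairpins as these numbered 187 (2.50%) for MMP7 and 154 (2.06%) for TIMP2.

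ADAM12, a sheddase that is raised in several carcinomas, was the member furthest on the other side with close hairpins, at 0.24 and 0.29 (mean 0.27 ± 0.04, adjusted p = 0.276 from limma). At least as high with both hairpins were 12.3% of the genes. MMP15 lay at -0.11 and -0.11 (adjusted p = 0.282 from limma), CTSB at -0.13 and -0.15 (0.289) and ADAMTS9 at -0.14 and -0.11 (0.312). MMP11, or stromelysin 3, was at -0.23 and -0.10, ADAM9 at -0.08 and -0.16, and CTSH at -0.07 and -0.31. BSG and CTSZ had exactly the control value with both hairpins, and MMP17 with shNEDD9 #1, ties of the kind described above.

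Among the inhibitors the hairpins had opposite signs for TIMP3 and TIMP4, and RECK and TIMP1 were higher with both. TIMP3 was at 0.49 with shNEDD9 #1 and -0.11 with shNEDD9 #2 (mean 0.19 ± 0.43), and TIMP4, a TIMP of restricted tissue range, at 0.14 and -0.38 (mean -0.12 ± 0.37). The gap of 0.61 between the hairpins for TIMP3 was the widest among the 18 members. RECK was at 0.48 and 0.19 (mean 0.33 ± 0.21) and TIMP1, a broad MMP inhibitor, at 0.18 and 0.08 (mean 0.13 ± 0.07). For these 4 genes the adjusted p from limma ran from 0.474 to 0.872. Below the median, ADAMTS6 was at 0.44 and 0.00 and MMP12 at -0.18 and -0.41.

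Over all 38 genes, with no filter, the median difference was -0.06 with shNEDD9 #1 and -0.08 with shNEDD9 #2, against 0.02 and 0.00 over all 14232 genes. Lower with both hairpins, by any amount, were 19 of the 38 (27.7% of all genes), and 8 were higher with both (39.6% of all genes). Of the 19, 11 were below the median on every array. After a further quantile normalization 26 were lower with both hairpins, where 50.1% of all genes were, and 6 were higher, where 29.0% were. The list was chosen with results of these arrays known, so its direction here is not separate evidence. By role, 6 of 11 secreted MMPs, 3 of 6 membrane-type MMPs, 1 of the 6 inhibitors and inducer (TIMP2), 3 of 5 ADAMs, 3 of 5 ADAMTS and 3 of 5 cathepsins were lower with both.

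**Figure D3:**
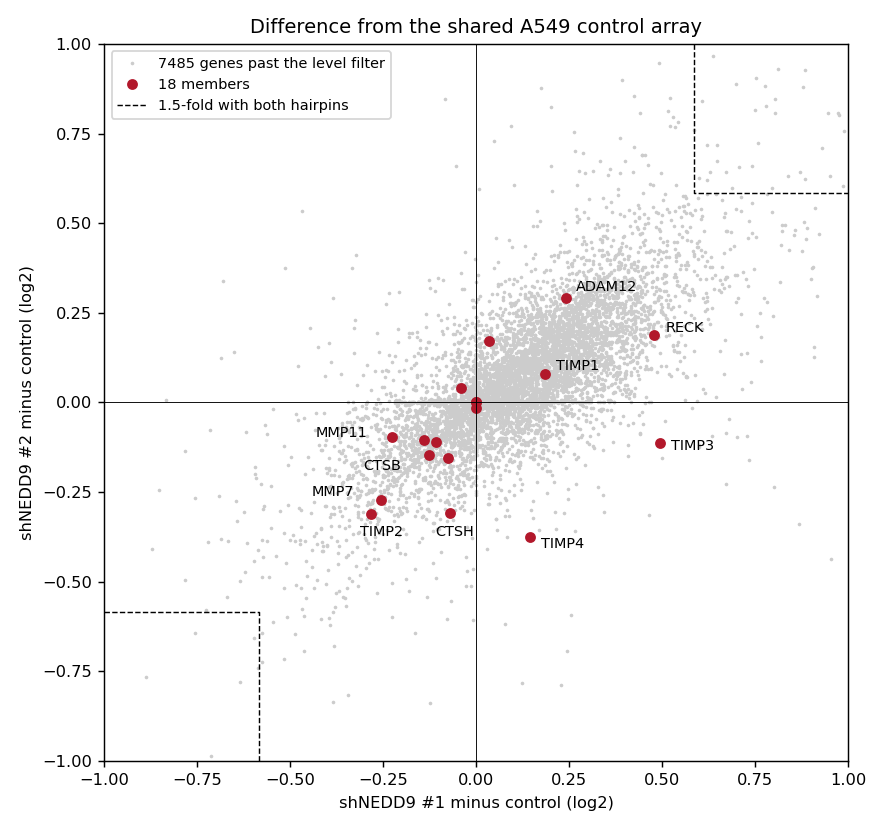
Log2 difference from the A549 control array with shNEDD9 #1 (x axis) and shNEDD9 #2 (y axis) for 7485 genes past the filter (grey) and the 18 members among them (red, some named), with dashed lines at 1.5-fold for both hairpins. No member reaches a dashed corner, MMP7 and TIMP2 lie at the lower left, TIMP3 and TIMP4 lie where the hairpins have opposite signs, and 35 genes beyond ±1 are not drawn.

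With NEDD9 overexpression in CRL-5907, MMP7 was the only one of the 18 members past the filter that was 1.5-fold from the control. Over the 7410 genes past the filter 3.50% were 1.5-fold higher and 0.850% lower (4.35% in all), so 1 member higher (5.56%) is near the background. After a further quantile normalization 188 genes were higher and 111 lower, in place of 259 and 63, and MMP7 was again the only member. Each condition has 1 array of this line, so there is no replicate error from CRL-5907 itself, and the differences were not tested.

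MMP7 went from 5.85 to 6.64, a difference of 0.79 or 1.73-fold, and 89 of the 7410 genes were at least as far above their control (1.20%). Median centring, a further quantile normalization or removal of the trend with level lowered it slightly, to between 0.75 and 0.76. Its level with overexpression remained far below that on any A549 array. ADAM12 followed at 0.52 (6.69 to 7.21, 1.43-fold), where 4.78% of genes were as high, and ADAMTS9 at 0.42 (6.82 to 7.23). CTSZ was at 0.28, MMP14 at 0.26, CTSB at 0.22 and MMP24 at 0.19. As a scale, the difference between the 2 hairpin arrays had an SD of 0.17 over the 7485 genes of the knockdown.

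The 4 TIMPs were all lower with overexpression, by small amounts. TIMP3 was at -0.23, TIMP2 at -0.14, TIMP4 at -0.12 and TIMP1 at -0.12, and each stayed below 0 under the other scalings. BSG was at -0.19 and RECK, below the median in this line, at 0.03. Over all genes 42.3% were lower with overexpression, 58.3% after median centring and 60.9% after a further quantile normalization. Staying below 0 under those 2 scalings therefore adds little. Also lower were CTSH (-0.15), ADAM15 (-0.14) and ADAM9 (-0.14), while MMP11, MMP15 and MMP17 lay between -0.00 and 0.02. Below the median on all arrays, CTSK was at 0.49, ADAMTS1 at 0.49 and MMP1 at 0.22, and ADAM28 was at -0.48, MMP16 at -0.44, ADAMTS6 at -0.25 and ADAM19 at -0.25. Over all 38 genes 17 were higher, 18 lower and 3 tied (9.58% of all genes were tied), with a median of 0.00, the same as over all 14232 genes.

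**Figure D4:**
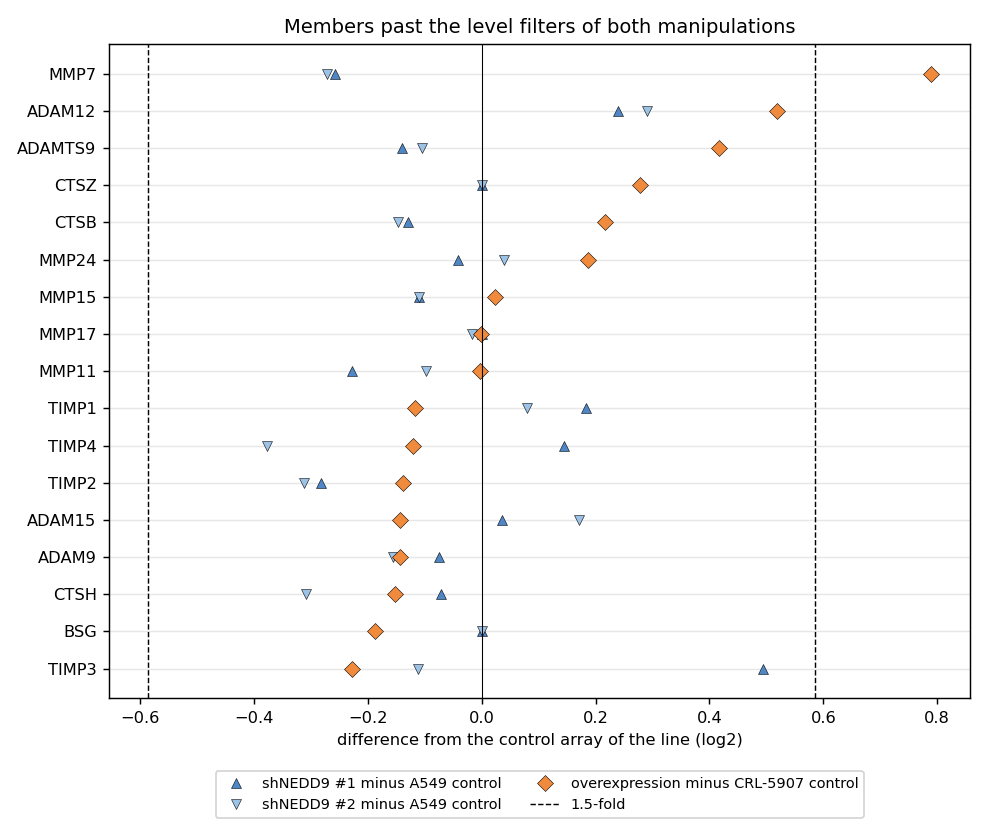
Log2 difference from the control array of the line (x axis) for the 17 members past the filters of both manipulations (rows, ordered by overexpression), with triangles for the 2 hairpins, diamonds for overexpression and dashed lines at 1.5-fold. MMP7 is the only diamond past a dashed line, at 0.79, with both triangles on the other side of 0; the 4 TIMPs have diamonds below 0.

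The 2 manipulations use different control arrays, so their directions can be set side by side. Lower with both hairpins and higher with overexpression, by any amount, were 8 of the 38 genes (21.1%), against 10.1% of all genes. They were MMP1, MMP7, MMP12, MMP15, ADAMTS1, ADAMTS9, CTSB and CTSK, of which MMP7, MMP15, ADAMTS9 and CTSB were past both filters. The reverse pattern was seen in 3 of the 38 (7.89%), TIMP1, ADAM15 and ADAMTS5, against 13.8% of all genes. Neither pattern was tested. MMP15 owes its place to 0.02 with overexpression, which became -0.01 after median centring, -0.04 after quantile normalization and -0.03 once the trend with level was removed. Under the other settings the first pattern held 8 to 11 members, where 10.2% to 16.4% of all genes had it. The second held 2 to 4. Each direction alone was seen in 19 of the 38 for lower with both hairpins (27.7% of all genes). For higher with overexpression it was 17 (48.1% of all genes). The share in the first pattern thus repeats the excess of members lower with both hairpins. The list was chosen with results of these arrays known, so that share is not separate evidence. A link between the 2 manipulations was not tested.

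Past the filter in both manipulations and the same sign in all 3 differences were ADAM12, higher throughout, and MMP11, TIMP2, ADAM9 and CTSH, lower throughout. MMP11 was at -0.00 with overexpression. The share of all genes with the same sign throughout was not computed, so this is a description and not a result about these members. TIMP2 was thus lower with NEDD9 lowered (-0.28 and -0.31) and with NEDD9 raised (-0.14), and its level was higher in A549 than in CRL-5907 on all arrays.

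Related genes outside the list were taken from sets of further family members, cofactors and regulators, without 1.5-fold differences with both hairpins in any of the 9 sets. None of the 5 other MMPs measured was past the filter. ADAM23, an ADAM without protease activity, was the only further ADAM past it, at 6.39, 6.05 and 6.07 in A549 and 4.27 and 4.74 in CRL-5907, or -0.34 and -0.33 with the hairpins. Among partners of ADAM10 and ADAM17, 7 of 8 were lower with both hairpins by any amount (27.7% of all genes). The share of all genes rose to 48.1% after median centring and 50.1% after a further quantile normalization, where the partners were not counted. TSPAN5 and TSPAN10, among the 7, did not pass the filter, and RHBDF1 was at -0.05 with each hairpin, a tie. TSPAN14, a tetraspanin that carries ADAM10 to the surface, was at -0.31 and -0.25, and TSPAN15, another such tetraspanin, at -0.13 and -0.33 with the hairpins and -0.56 with overexpression. Of further cathepsins CTSC, which activates granule serine proteases, was at 0.21 and 0.09 with the hairpins and 0.29 with overexpression, and CTSA at 0.14, 0.11 and -0.06. CST3, or cystatin C, the main secreted cathepsin inhibitor, was at 0.23 and 0.21 with the hairpins and -0.14 with overexpression.

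AP-1 and ETS factors, which regulate many MMP genes, were higher with overexpression by any amount in 12 of 14 (48.1% of all genes). Of the 12 past the filter 3 were 1.5-fold higher, as were 3.50% of all genes past it. ATF3 was at 0.73 and FOSL1, an AP-1 subunit of invasive carcinoma cells, at 0.71. JUN was the third, at 0.66. None of these 3 was lower with both hairpins. FOSL1 was at 0.06 and -0.20, JUN at 0.12 and 0.01, and ATF3, below the filter in A549, at 0.14 and 0.14. With the hairpins JUNB was at -0.39 and -0.38 and ETS2 at 0.42 and 0.25, and none of the 10 past the filter was 1.5-fold from control with both. Proprotein convertases, which remove the propeptides of membrane-type MMPs and ADAMs, differed 2-fold between the control arrays in 3 of 4 (14.9% of all genes past the filter), in both directions. PCSK5 had the widest gap, at 7.33 in A549 and 4.04 in CRL-5907. FURIN was the reverse at 7.20 in A549 and 8.40 in CRL-5907, as was PCSK6 at 7.14 and 8.16. Of the 12 lysosome genes past the filter with overexpression, GLA, which encodes alpha-galactosidase (0.95), and NPC1, a cholesterol transporter (0.77), were 1.5-fold higher and none was 1.5-fold lower, against 3.50% and 0.850% of all genes past it. By any amount 7 of the 13 measured were higher and 6 lower. With the hairpins HEXA was at 0.40 and 0.25 and TFEB, a transcription factor of lysosome genes, at -0.26 and -0.26. Among further ADAMTS genes, ADAMTS2, a procollagen peptidase, was at -0.20 and -0.18, and ADAMTS10 at -0.23 with overexpression.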

How the data were processed

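The authors deposited log2 values of 22011 features on 5 arrays. The submitters' processing notes name RMA and Affymetrix Power Tools and give no version. RMA corrects background, quantile-normalizes the arrays and summarises probes. That the base is 2 was inferred from RMA and the range, 0.58 to 13.09. The genome build is not given in the sources used here, and detection per feature is unknown. The number of arrays limits precision.

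By the platform's annotation 14432 features had 1 symbol, 2408 several and 5171 were unnamed here. Groups followed the sample titles. The description of the shNEDD9 #2 array names NEDD10 and was not followed. Members and related lists were chosen with earlier results of these data known.

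Differences from control were computed per array. Folds of 1.5 (manipulations, both hairpins for knockdown) and 2 (lines) counted. The knockdown fit used R 4.3.3 and limma 3.58.1 (eBayes with trend, Benjamini-Hochberg at 0.05), which assumes that the lone control varies like the hairpins. Both steps were run on simulated arrays, with planted changes larger than any hairpin difference of the members past the filter. The simulated control was given the spread between the hairpins, and no rate of recovery by limma was required. That run does not show that changes as small as those of the members would be found. Values were described for members past a fold, for those at least 0.25 from control with both hairpins, and for TIMP1, TIMP2, CTSB, MMP2, MMP9 and MMP14. The others were named after their values were seen. Promoters came from RefSeq (GRCh38.p14), where 23 of 43 genes matched by symbol. Figures and summaries used Python 3.11.15. Alternatives were other scalings, filters, folds and feature rules, a trend removed with lowess (fraction 0.3), and each hairpin left out.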

Additional observations from a re-analysis of the deposited data

How the results depend on the processing

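No member was 1.5-fold from control with both hairpins under any of the 9 alternatives, a lower fold, no filter and either hairpin left out (0 to 0) among them. The limma fits called no gene at all, NEDD9 included, so the absence of members there is not a result about the members. limma called 0 members in all 8 fits, with a lowest adjusted p among members of 0.171 (a further quantile normalization) to 0.327 (centred arrays), Benjamini-Hochberg adjusted. At an unadjusted limma p under 0.05 it gave 3 to 5 of 18 members in the fits with the same filter. Those fits gave 1108 to 1312 genes in all, of 7448 to 7491 tested. With overexpression the count of 1 (MMP7) became 0 at 2-fold and 0 with a filter at the 75th percentile, which removed MMP7. Of all genes 0.783% and 4.88% were called under these 2 settings. Between the controls the count of 6 became 2 at 4-fold (MMP7 and TIMP3) and 4 to 6 otherwise. Of all genes 4.22% were called at 4-fold. The other scalings, filters and feature rule called 9.96% (no filter) to 18.3% (filter at the 75th percentile). The count was 5 with every A549 array set against every CRL-5907 array, an alternative chosen after seeing the data. Of 220 values of single members under other scalings or the mean of a gene's features, 219 moved by less than the SD of 0.166 between the hairpins over genes past the filter. The exception was the TIMP2 gap between lines, 0.76 and 0.59 after quantile normalization. No member past a filter had a second feature, so the values from the mean of features could not move. Many differences are smaller than this SD, so the count does not show that they held. The knockdown mean of ADAM15 went from 0.103 to 0.005 after quantile normalization. In 9 of the 220 the sign turned, all from a size of at most 0.116. Over all genes the share of 1.5-fold calls with both hairpins that were higher was 84.1%, and 69.0% after quantile normalization, and with overexpression 80.4% and 62.9%. No paired analysis was possible because each control group has 1 array and the labels pair no arrays across groups.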

Other observations

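MMP16 and ADAMTS6 had a second feature that was not used above, and both features of each lay below the array medians. For ADAMTS6, a secreted protease of fibrillin microfibrils, both features were higher with shNEDD9 #1 than on the A549 control (3.95 to 4.39 and 3.28 to 3.65) and close to the control with shNEDD9 #2 (3.95 and 3.30). Both were lower in CRL-5907 with overexpression (3.68 to 3.43 and 2.97 to 2.83). For MMP16, a membrane-type MMP, the features went opposite ways with overexpression (3.92 to 3.47 and 2.81 to 2.93), so its difference of -0.44 rests on 1 of the 2 features.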
